A study of Homo sapiens with 12 samples.

Results

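The response to loss of Mina53 was compared between a p53-deficient and a p53-proficient form of HCT116, a human colorectal cancer cell line. For each gene the effect of depletion in p53+/+ cells was subtracted from the effect of depletion in p53-/- cells, and the result is called the difference below. All 12 of the 12 libraries entered it. There were 4 groups of 3 libraries, namely Mina53-depleted p53-/- cells, scrambled-control p53-/- cells, Mina53-depleted p53+/+ cells and scrambled-control p53+/+ cells. Values are FPKM, a level per transcript length and per library size, and effects are differences of group means of log2(FPKM + 1). A positive difference means that the effect was more positive, or less negative, in p53-/- cells. The same number is also the gap between the lines (p53-/- minus p53+/+) in depleted cells less that gap in scrambled cells. The p53-/- line was derived from HCT116, so any other feature in which the lines differ cannot be told apart from the loss of p53. The sources used here do not give the depletion reagent, the harvest time or whether replicates came from separate cultures, so p-values cover only the spread among these libraries, which may be technical. Effects of the reagent on genes other than its target cannot be told apart from loss of Mina53.

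Mina53, the product of RIOX2, is an oxygenase of the JmjC family that resides largely in the nucleolus and hydroxylates a histidine of the ribosomal protein RPL27A. The transcription factor p53 is stabilised when DNA is damaged or ribosome assembly is disturbed, and then switches on genes for cell cycle arrest, cell death and repair. Its target CDKN1A encodes the kinase inhibitor p21, through which the DREAM complex represses genes of DNA replication and mitosis that carry E2F or CHR elements in their promoters.

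RIOX2 stood at 2.11, 2.21 and 1.75 FPKM in depleted p53-/- cells and 9.31, 8.89 and 9.07 in scrambled p53-/- cells, against 3.04, 2.63 and 2.48 in depleted p53+/+ cells and 7.44, 7.27 and 7.77 in scrambled p53+/+ cells. The groups did not overlap in either line, and the depleted level was 22.3% of the scrambled level in p53-/- cells and 36.3% in p53+/+ cells. The fall was deeper in p53-/- cells (log2 difference -0.55, SE 0.0991, adjusted p = 0.00142, limma with Benjamini-Hochberg adjustment), and the part that this deeper fall plays in the other differences was not tested.

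Promoter stretches of 6 genes show elements that are known from mitosis, interferon and hypoxia genes and that part of the promoters in each group hold. They are printed 5′ to 3′ on the strand of the gene, in lower case, with matches of the searched motif on either strand in capitals (RefSeq, GRCh38.p14). The first pair belongs to genes of mitosis and holds the CHR element TTTGAA. MKI67 encodes the proliferation marker Ki-67 and lies at chr10:128126427-128126490 on the minus strand. ANLN encodes the cytokinesis protein anillin and lies at chr7:36389816-36389861 on the plus strand.
MKI67: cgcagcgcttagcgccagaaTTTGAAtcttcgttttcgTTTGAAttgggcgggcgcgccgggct
ANLN: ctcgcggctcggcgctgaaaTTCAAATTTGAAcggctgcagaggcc
The next pair belongs to interferon-induced genes and holds the interferon-stimulated response element, searched as GAAA, any 2 bases and GAAA. IFIT1, which encodes an antiviral RNA-binding protein, lies at chr10:89392487-89392549 on the plus strand. DDX60, which encodes a helicase linked to RNA sensing, lies at chr4:168318776-168318860 on the minus strand.
IFIT1: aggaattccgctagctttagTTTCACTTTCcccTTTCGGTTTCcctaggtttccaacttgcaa
DDX60: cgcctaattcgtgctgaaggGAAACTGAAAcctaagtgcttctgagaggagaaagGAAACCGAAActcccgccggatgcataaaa
The last pair belongs to hypoxia-induced genes and holds ACGTG, the core of the hypoxia response element, which also lies within the E-box CACGTG. BNIP3, which encodes a mitophagy receptor, lies at chr10:131982032-131982077 on the minus strand. PGK1, which encodes phosphoglycerate kinase, lies at chrX:78104026-78104089 on the plus strand.
BNIP3: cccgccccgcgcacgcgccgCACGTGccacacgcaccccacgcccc
PGK1: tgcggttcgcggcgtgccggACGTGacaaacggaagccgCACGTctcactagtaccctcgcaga

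The searched window ran from 250 bases before to 50 bases after each gene's start. Promoters on chromosome 8 were left out of the search and of all shares. TTTGAA was found in the promoters of 21 of 32 genes of mitotic entry and the spindle (65.6%) and of 14 of 21 kinetochore genes (66.7%), against 9.18% of the 9934 promoters of genes tested. It was in 15% of promoters of genes with a positive called difference and in 5.72% of those with a negative one. The interferon element was in 18 of 23 promoters of interferon effector genes (78.3%), against 2.57% of genes tested. ACGTG was in 13 of 19 promoters of hypoxia-inducible genes outside glycolysis (68.4%) and in 8 of 21 of glycolysis genes (38.1%), against 27.0% of genes tested. The E2F motif GGCGGGAA was in 31.6% of replication and 36.8% of recombination gene promoters, against 5.28%. The split by sign of the called difference was narrower for these motifs than for TTTGAA. For positive and negative ones it was 29.1% and 27.3% for ACGTG, 3.81% and 2% for the interferon element and 6.64% and 4.36% for GGCGGGAA. The AP-1 motif TGANTCA was in 1 of 10 promoters of AP-1 and ATF genes and 1 of 18 of ERK feedback genes. It was in 4.41% of genes tested. Over the 27305 promoters searched in all, TTTGAA was in 15.4%, the interferon element in 3.65%, ACGTG in 21.6% and GGCGGGAA in 3.18%. The p53 motif was searched as RRRCWWGYYY directly followed by RRRCWWGYYY, with R for A or G, W for A or T and Y for C or T. No spacer or mismatch was allowed. This strict form was found in 0 of the 9934 promoters of tested genes, so the search says nothing of p53 binding. These matches describe the letters of the windows and do not show that a factor binds there.

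Library totals ranged from 348822 to 372821 FPKM, and the depth in reads is unknown. The first principal component held 49.4% of the variance and separated the lines, and the second held 33.6% and separated depleted from scrambled libraries. The third held 6.35% and had the shape of the difference. On it, depleted p53-/- libraries lay at 6.74 to 11.23 and scrambled p53-/- libraries at -13.04 to -7.49, against -11.95 to -6.23 for depleted p53+/+ libraries and 8.75 to 10.13 for scrambled p53+/+ libraries. Of 10 epithelial markers 8 reached 1 FPKM in 3 or more libraries, with a summed level of 2022 to 2520.5 FPKM over the libraries. Of the markers of other cell types, 6 endothelial ones summed to at most 0.366 FPKM, 5 of kidney and liver lines to 2.17 to 4.27, 6 erythroid ones to 0.756 to 4.82 and 10 immune ones to 4.31 to 9.92. The 8 fibroblast markers summed to 11.8 to 12.3 FPKM in depleted p53-/- libraries and 7.17 to 7.73 in scrambled p53-/- libraries, against 10.3 to 10.8 in depleted p53+/+ libraries and 6.80 to 7.49 in scrambled p53+/+ libraries. The 5 neuronal markers, of which TUBB3 alone reached 1 FPKM in 3 libraries, summed to 229 to 241 FPKM in depleted p53-/- libraries and 175 to 184 in scrambled p53-/- libraries, against 157 to 176 in depleted p53+/+ libraries and 88.5 to 89.3 in scrambled p53+/+ libraries. The part of these markers in the differences was not tested. Protein-coding mitochondrial transcripts took 13.8% to 14.3% of the total in depleted p53-/- libraries and 9.95% to 10.9% in scrambled p53-/- libraries, against 17.8% to 19.3% in depleted p53+/+ libraries and 13.8% to 14.3% in scrambled p53+/+ libraries.

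**Figure D1:**
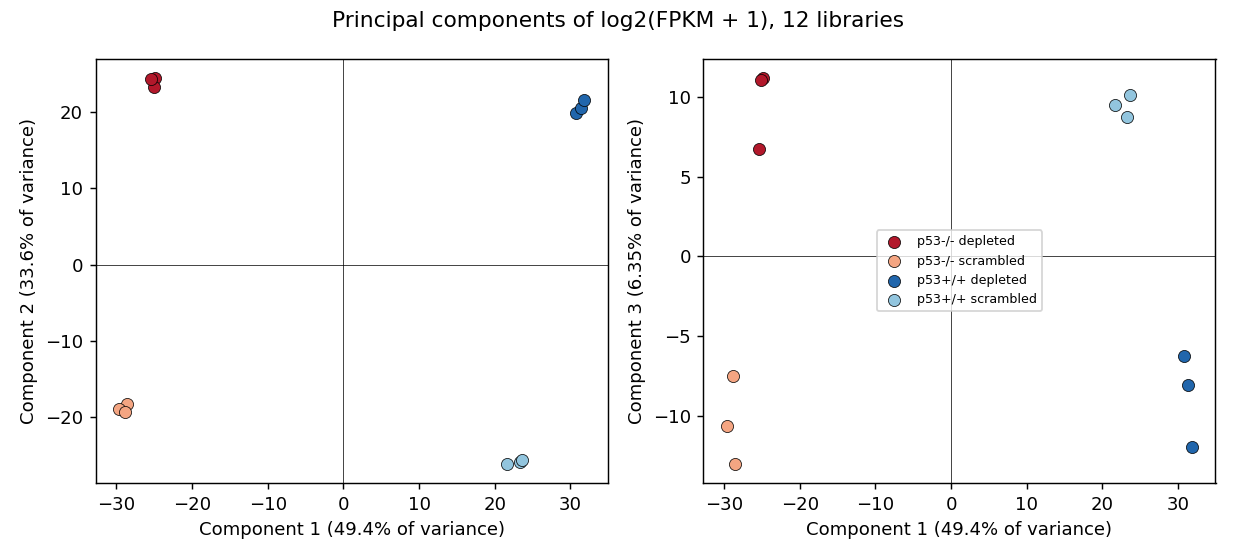
Scores of the 12 libraries on principal components of log2(FPKM + 1), component 2 (left) and component 3 (right) against component 1, each point 1 library. Component 3 places depleted p53-/- and scrambled p53+/+ libraries above 0 and the other groups below it.

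The difference passed the threshold (limma, Benjamini-Hochberg adjusted p under 0.05) for 4511 of 13728 genes tested, or 32.9%. It was positive for 2286 genes (16.7%) and negative for 2225 (16.2%), with a median of 0.003 over all genes tested. With mitochondrial genes removed and the rest rescaled the split was 1773 positive and 2792 negative, and the median moved to -0.04. For 155 genes (1.13% of those tested) the difference was at least 1 in size. Depletion by itself changed 8071 genes in p53-/- cells (58.8%, with 28.9% raised and 29.9% lowered) and 8334 in p53+/+ cells (60.7%, with 28.5% raised and 32.2% lowered).

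The 4511 genes arose in several ways. In 1270 of them (28.2%) depletion changed the gene in p53+/+ cells without a call in p53-/- cells, with 678 falls and 592 rises. The reverse held for 1042 genes (23.1%), with 557 rises and 485 falls in p53-/- cells. Both effects passed in the same direction for 1640 genes (36.4%) and differed in size. Both passed in opposite directions for 509 (11.3%), of which 285 rose in p53-/- cells and fell in p53+/+ cells and 224 did the reverse. The effect was larger in absolute size in p53-/- cells for 1998 genes (44.3%) and in p53+/+ cells for 2513 (55.7%). Seen as the gap between the lines, 2430 genes (53.9%) differed more between the lines after depletion than before, and 2081 (46.1%) differed less. The gap passed with opposite signs in depleted and scrambled cells for 408 genes, against a share of genes with any called gap of 64.3% in depleted cells (37.0% higher and 27.3% lower in p53-/-) and 63.4% in scrambled cells (36.7% higher and 26.6% lower in p53-/-). On the linear FPKM scale 59 of the 4511 genes (1.31%) had a difference of the other sign.

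**Figure D2:**
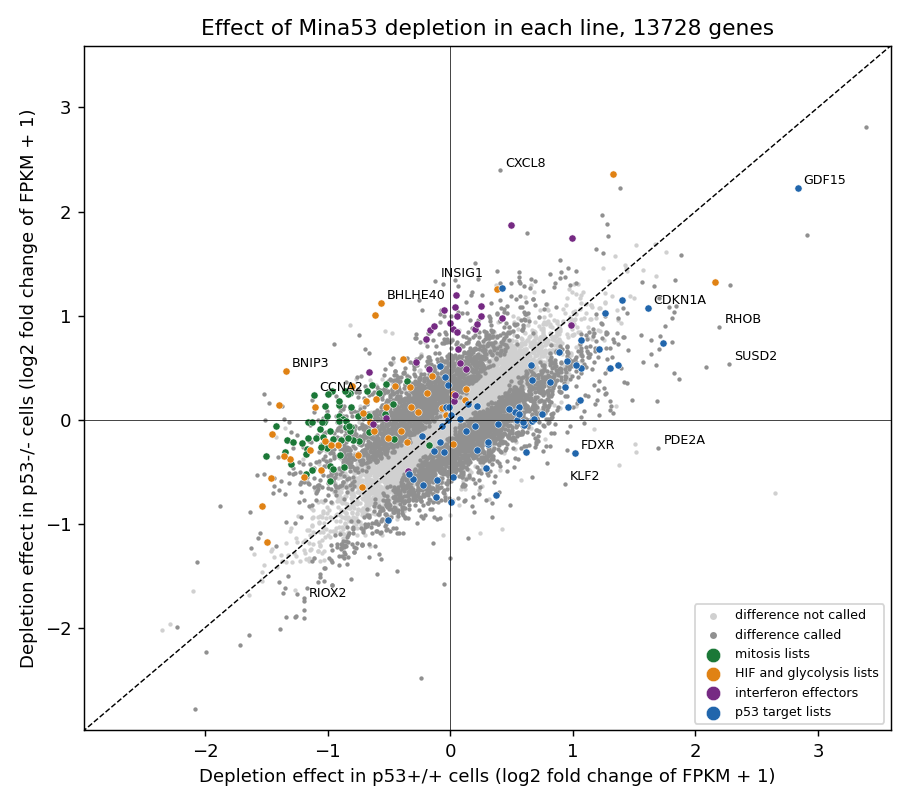
Depletion effect in p53-/- cells (vertical axis) against that in p53+/+ cells (horizontal axis) for 13728 genes, both as log2 fold change of FPKM + 1; genes on the dashed line have no difference. Members of the mitosis, HIF and interferon lists lie mostly above the line and p53 targets mostly below it, and BNIP3 and BHLHE40 fell in p53+/+ cells and rose in p53-/- cells.

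Genes that run cell division fell on depletion in p53+/+ cells, and in p53-/- cells they moved in both directions. The difference was positive and called for all 38 genes tested of mitotic entry and the spindle (median 0.94) and for 25 of 26 kinetochore and checkpoint genes (median 0.77), against 16.7% of all genes tested. Over both lists the median depletion effect was -0.084 in p53-/- cells, where 13 rose and 25 fell, and -0.93 in p53+/+ cells, where all 64 fell. The gap between the lines widened accordingly, to a median of 1.17 in depleted cells against 0.28 in scrambled cells. BUB3, a checkpoint protein that also works outside mitosis, was the single member not called (-0.066).

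CCNA2 encodes cyclin A, which drives cells through S phase and into mitosis. It was at 38.3, 39.9 and 38.3 FPKM in depleted p53-/- cells and 31.8, 32.0 and 34.3 in scrambled p53-/- cells, against 13.0, 12.1 and 11.8 in depleted p53+/+ cells and 28.2, 26.9 and 28.0 in scrambled p53+/+ cells. Depletion raised it slightly in p53-/- cells and lowered it in p53+/+ cells to 44.4% of the scrambled level (log2 difference 1.35, SE 0.0627, adjusted p = 1.09e-07). MKI67 stood at 29.7, 30.7 and 29.0 FPKM in depleted p53-/- cells and 36.4, 36.9 and 38.2 in scrambled p53-/- cells, against 18.2, 17.8 and 17.0 in depleted p53+/+ cells and 45.5, 45.2 and 48.5 in scrambled p53+/+ cells. Depletion lowered it in both lines, with log2 effects of -0.31 in the p53-/- line and -1.35 in the p53+/+ line, and the difference was 1.04 (SE 0.0574, adjusted p = 5.43e-07). The cytokinesis gene ANLN, whose promoter is printed above, was at 36.0, 37.3 and 32.2 FPKM in depleted and 26.7, 29.7 and 29.98 in scrambled p53-/- cells, against 15.6, 15.3 and 14.0 in depleted and 30.4, 30.7 and 29.1 in scrambled p53+/+ cells (log2 difference 1.24, SE 0.0874, adjusted p = 2.00e-06). The motor genes KIFC1 and KIF20A had differences of 0.95 and 1.05 and rose in p53-/- cells while they fell in p53+/+ cells.

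Among kinetochore genes, NUF2 encodes a subunit of the NDC80 complex that binds microtubules. Its values were 12.3, 13.3 and 11.9 FPKM in depleted p53-/- cells and 9.33, 10.4 and 11.3 in scrambled p53-/- cells, against 5.80, 6.04 and 4.37 in depleted p53+/+ cells and 11.9, 12.3 and 10.9 in scrambled p53+/+ cells (log2 difference 1.24, SE 0.138, adjusted p = 5.13e-05). The passenger kinase AURKB and the checkpoint kinase BUB1 had differences of 0.76 and 0.89, and their depleted and scrambled p53-/- libraries overlapped, whereas the p53+/+ groups did not. CDC20, an activator of the anaphase-promoting complex, and BIRC5, which encodes survivin, fell in both lines. CDC20 fell by 0.52 on the log2 scale in p53-/- cells and by 1.18 in p53+/+ cells, and BIRC5 by 0.49 and 1.13.

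Genes of DNA replication fell in both lines and fell further in p53+/+ cells. Of 43 tested, 33 had a positive (76.7%) and 2 a negative called difference (4.65%), against 16.7% and 16.2% of all genes tested. The median difference was 0.43, with a median effect of -0.45 in p53-/- cells and -0.85 in p53+/+ cells. The replicative helicase subunit MCM7 was at 107, 107 and 112 FPKM in depleted p53-/- cells and 157, 148 and 146 in scrambled p53-/- cells, against 63.0, 61.8 and 63.5 in depleted p53+/+ cells and 135, 134 and 141 in scrambled p53+/+ cells (log2 difference 0.64, SE 0.0507, adjusted p = 4.35e-06). Its partners MCM4 and MCM5 had differences of 0.75 and 0.63. RRM1, the large subunit of ribonucleotide reductase, stayed at 33.7, 35.2 and 34.5 FPKM in depleted p53-/- cells, against 33.8, 35.3 and 34.9 in scrambled p53-/- cells, and fell to 21.4, 20.9 and 20.02 in depleted p53+/+ cells, against 32.0, 31.0 and 33.1 in scrambled p53+/+ cells. The members with negative differences were PCNA (-0.19), the polymerase clamp and a known p53 target, whose call was lost without replicate 1 of depleted p53-/- cells or replicate 2 of scrambled p53+/+ cells (adjusted p up to 0.0531), and CCNE1 (-0.64), which encodes cyclin E.

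Of 23 genes of homologous recombination and the Fanconi pathway, 17 had a positive called difference (73.9%) and 0 a negative one (median 0.42). The shares of all genes tested were 16.7% and 16.2%. This pathway repairs crosslinked and broken DNA during replication. FANCI was at 16.4, 16.1 and 16.4 FPKM in depleted p53-/- cells and 17.6, 17.8 and 19.0 in scrambled p53-/- cells, against 9.78, 9.28 and 8.69 in depleted p53+/+ cells and 17.7, 17.2 and 17.8 in scrambled p53+/+ cells (log2 difference 0.71, SE 0.0645, adjusted p = 1.12e-05), and its partner FANCD2 had a difference of 0.59. The core complex member FANCG was at 21.4 FPKM in depleted and 22.1 in scrambled p53-/- cells, against 9.56 and 13.9 in depleted and scrambled p53+/+ cells, and the helicase gene BLM differed by 0.71. In the paralog genes RAD51C, RAD51D and XRCC3 the difference lay between -0.15 and -0.012 and was not called.

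Targets of p53 moved the other way. Over 4 lists by role, 41 of 63 genes tested had a negative called difference and 3 a positive one (median -0.45), against 16.2% and 16.7% of all genes. Depletion raised 41 and lowered 5 of the 63 in p53+/+ cells (median 0.43), and raised 24 and lowered 19 in p53-/- cells (median 0.058). Their gap between the lines was -0.89 in depleted cells against -0.48 in scrambled cells, at the median. The lists were drawn from general knowledge of p53 and hold genes that other factors also switch on.

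Of 16 genes of DNA repair and metabolism 13 had a negative difference and 0 a positive one (median -0.55). FDXR, a mitochondrial ferredoxin reductase, was at 14.2, 13.6 and 15 FPKM in depleted p53-/- cells and 18.8, 16.9 and 18.3 in scrambled p53-/- cells, against 80.5, 80.3 and 84.2 in depleted p53+/+ cells and 40.5, 40.1 and 38.8 in scrambled p53+/+ cells (log2 difference -1.34, SE 0.0651, adjusted p = 1.71e-07). It thus fell in p53-/- cells and rose in p53+/+ cells. XPC, which recognises damaged bases in nucleotide excision repair, did likewise, with 7.25, 7.09 and 7.42 FPKM in depleted and 10.4, 10.6 and 10.3 in scrambled p53-/- cells, against 15.9, 15.3 and 15.7 in depleted and 12.4, 13.0 and 12.5 in scrambled p53+/+ cells (difference -0.76). SESN2, a sestrin that restrains mTORC1, rose in both lines and by less in p53-/- cells (-1.0), and the carboxylesterase gene CES2 differed by -0.84.

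Among 15 death genes 8 had a negative difference and PMAIP1 a positive one. BAX, which permeabilises the mitochondrial outer membrane, was at 33.0, 37.2 and 31.9 FPKM in depleted p53-/- cells and 34.2, 34.9 and 28.9 in scrambled p53-/- cells, against 82.0, 84.3 and 88.0 in depleted p53+/+ cells and 50.1, 48.5 and 51.8 in scrambled p53+/+ cells (log2 difference -0.69, SE 0.0993, adjusted p = 3.22e-04). Its p53-/- groups overlapped and its p53+/+ groups did not. The exonuclease gene AEN fell by 0.79 in p53-/- cells and had an effect of 0.0046 in p53+/+ cells (adjusted p = 0.935). TP53I3 and TRIAP1 rose in both lines and by less in p53-/- cells, with differences of -0.81 and -0.57. PMAIP1 encodes NOXA, a BH3-only protein, and went against its list at 80.04, 76.7 and 73.5 FPKM in depleted p53-/- cells and 29.0, 32.6 and 32.4 in scrambled p53-/- cells, against 21.1, 18.8 and 17.1 in depleted p53+/+ cells and 13.5, 13.4 and 14.7 in scrambled p53+/+ cells (log2 difference 0.84, SE 0.10, adjusted p = 8.60e-05). The death receptor genes TNFRSF10B, TNFRSF10C and TNFRSF10D had differences between 0.0001 and 0.019, none of them called.

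Of 13 arrest and feedback genes 7 had a negative difference, and GADD45A (0.59) and CCNG1 (0.35) a positive one. The call of CCNG1 was lost in 7 of the 12 fits that each left out 1 library (adjusted p up to 0.0710). Among the negative ones, TP53INP1 also lost its call in 7 of these fits (adjusted p up to 0.0913). BTG2 lost its call with a pseudocount of 0.1. CDKN1A was at 29.2, 31.9 and 32.5 FPKM in depleted p53-/- cells and 14.9, 14.0 and 13.9 in scrambled p53-/- cells, against 362, 369 and 369 in depleted p53+/+ cells and 118, 122 and 119 in scrambled p53+/+ cells. It rose in both lines, 2.19-fold in p53-/- cells and 3.07-fold in p53+/+ cells by the ratio of mean FPKM, and the difference was -0.53 (SE 0.0582, adjusted p = 4.54e-05). PLK2, a polo-like kinase, changed in opposite directions with a difference of -1.10. MDM2, whose product ubiquitinates p53, was at 6.34, 6.82 and 6.43 FPKM in depleted p53-/- cells and 7.81, 8.0 and 9.13 in scrambled p53-/- cells, against 14.5, 12.3 and 12 in depleted p53+/+ cells and 13.5, 14.1 and 15.3 in scrambled p53+/+ cells, and its difference of -0.17 was not called (adjusted p = 0.247).

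Of 19 further p53 targets 13 had a negative difference and 0 a positive one (median -0.45). The stress cytokine gene GDF15 rose in both lines, and stood at 574 FPKM in depleted and 122 in scrambled p53-/- cells, against 1082 and 151 in depleted and scrambled p53+/+ cells (difference -0.60). NINJ1, which encodes a protein of membrane rupture, fell in p53-/- cells and rose in p53+/+ cells (-0.93). EPS8L2, PLXNB2 and RPS27L had differences of -0.62, -0.37 and -0.51. RPS27L was at 1.87 to 2.10 FPKM in all 6 p53-/- libraries and the depleted and scrambled ones overlapped, while it reached 9.0 to 10.1 in depleted p53+/+ cells, against 6.13 to 6.37 in scrambled p53+/+ cells.

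Genes induced by hypoxia mostly fell on depletion in p53+/+ cells and moved in both directions in p53-/- cells. HIF, the hypoxia-inducible factor, raises glycolysis and glucose uptake, lowers mitochondrial mass through mitophagy and promotes vessel growth. Of 23 tested HIF targets outside glycolysis, 20 had a positive called difference and 1 a negative one (median 0.77). Of 22 glycolysis genes 17 had a positive difference and 1, PFKM (-0.26), a negative one (median 0.60). Positive shares were thus 87% and 77.3% and negative ones 4.35% and 4.55%, against 16.7% and 16.2% of all genes tested. Over both lists depletion raised 17 and lowered 16 of 45 genes in p53-/- cells, and raised 4 and lowered 36 in p53+/+ cells. The lists parted in p53-/- cells. There 7 glycolysis genes rose and 11 fell (median -0.14), while 10 of the other HIF targets rose and 5 fell (median 0.18). Here the lines drew together: the median gap was -0.55 in depleted cells against -1.19 in scrambled cells, and it was wider after depletion for only 5 of the 45. For 5 of the 45 a group mean lay under 1 FPKM, where the scale compresses changes.

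BNIP3 had the largest difference of the hypoxia genes. It was at 20.1, 20.9 and 21.2 FPKM in depleted p53-/- cells and 14.0, 14.9 and 15.3 in scrambled p53-/- cells, against 28.1, 32.1 and 30.04 in depleted p53+/+ cells and 79.2, 79.5 and 74.1 in scrambled p53+/+ cells (log2 difference 1.81, SE 0.0727, adjusted p = 3.81e-08). It rose in p53-/- cells and fell in p53+/+ cells, and even after the fall the p53+/+ libraries lay above every p53-/- library. Its paralog BNIP3L, also a mitophagy receptor, was at 7.28, 7.80 and 7.14 FPKM in depleted and 6.74, 6.49 and 6.99 in scrambled p53-/- cells, against 14.6, 14.3 and 13.4 in depleted and 32.7, 32.3 and 29.1 in scrambled p53+/+ cells (difference 1.22). ANGPTL4, a secreted inhibitor of lipoprotein lipase, rose in p53-/- cells and fell in p53+/+ cells (log2 difference 1.62, SE 0.104, adjusted p = 1.11e-06). KDM3A, a histone demethylase of the JmjC family that HIF induces, did the same, with 13.2, 12.3 and 11.5 FPKM in depleted and 7.56, 7.76 and 8.33 in scrambled p53-/- cells, against 22.2, 22.9 and 25 in depleted and 30.9, 31.9 and 29.7 in scrambled p53+/+ cells.

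In glycolysis the largest of the named differences was that of PFKFB4, which makes the activator fructose 2,6-bisphosphate (1.13). LDHA, which turns pyruvate into lactate, was at 227, 239 and 227 FPKM in depleted p53-/- cells and 275, 277 and 271 in scrambled p53-/- cells, against 307, 323 and 329 in depleted p53+/+ cells and 649, 636 and 599 in scrambled p53+/+ cells (log2 difference 0.73, SE 0.0535, adjusted p = 2.92e-06). It fell in both lines. PGK1 rose in p53-/- cells by 0.31 and fell by 0.32 in p53+/+ cells, and PGAM1 had effects of 0.12 and -0.52. PGAM1 and PGK1 have processed pseudogenes that may share reads. The glucose transporter gene SLC2A1 (0.13) was not called (adjusted p = 0.119).

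Interferon-induced genes rose on depletion in p53-/- cells, with little net change in p53+/+ cells. Of 38 effector genes on the list 29 were expressed highly enough to be tested. Of these 26 had a positive called difference (89.7%) and 0 a negative one (median 0.75), against 16.7% and 16.2% of all genes tested. Depletion raised 26 and lowered 1 of the 29 in p53-/- cells (median 0.87), and raised 7 and lowered 6 in p53+/+ cells (median 0.043). The median gap between the lines was 1.18 in depleted cells against 0.48 in scrambled cells. In 7 of the 29 a group mean lay under 1 FPKM.

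OAS3 makes the second messenger that activates RNase L against viral RNA. It was at 34.3, 35.3 and 37.9 FPKM in depleted p53-/- cells and 18.8, 18.8 and 18.4 in scrambled p53-/- cells, against 6.52, 6.74 and 6.85 in depleted p53+/+ cells and 6.84, 7.37 and 8.08 in scrambled p53+/+ cells (log2 difference 1.03, SE 0.0769, adjusted p = 3.04e-06). The p53+/+ groups overlapped. IFIT1, whose promoter is printed above, stood at 7.42, 7.11 and 7.17 FPKM in depleted and 2.68, 3.01 and 3.19 in scrambled p53-/- cells, and at 0.736 to 0.903 in all 6 p53+/+ libraries (difference 1.11). The ubiquitin ligase gene DTX3L and DDX60 differed by 0.98 and 1.12, and both rose in p53-/- cells and fell in p53+/+ cells.

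Of 16 regulators of interferon signalling 8 had a positive difference (50%) and TYK2 (-0.30) a negative one (6.25%), with a median of 0.17. The shares of all genes tested were 16.7% and 16.2%. IRF9, the DNA-binding subunit of the interferon-activated complex ISGF3, rose in both lines, to 24.2, 23.3 and 29.2 FPKM in depleted p53-/- cells, against 9.81, 10.04 and 9.06 in scrambled p53-/- cells, and to 7.57, 7.03 and 7.44 in depleted p53+/+ cells, against 4.86, 4.61 and 4.40 in scrambled p53+/+ cells (difference 0.75). IRF1 rose in p53-/- cells, and its p53+/+ groups overlapped (0.79). The receptor genes IFNAR1, IFNAR2 and IFNGR1 and the kinase gene JAK2 were not called, and the receptor chain IFNGR2 differed by 0.65. Of 15 genes of MHC class I presentation 5 had a positive difference (33.3%) and 1 a negative one (6.67%). Over all genes tested these shares were 16.7% and 16.2%. B2M, the shared light chain, differed by 0.30, HLA-B by 0.32 and HLA-C by 0.31, while the peptide transporter TAP1 rose in both lines and by less in p53-/- cells (-0.30). HLA genes are close copies of each other and may share reads.

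**Figure D3:**
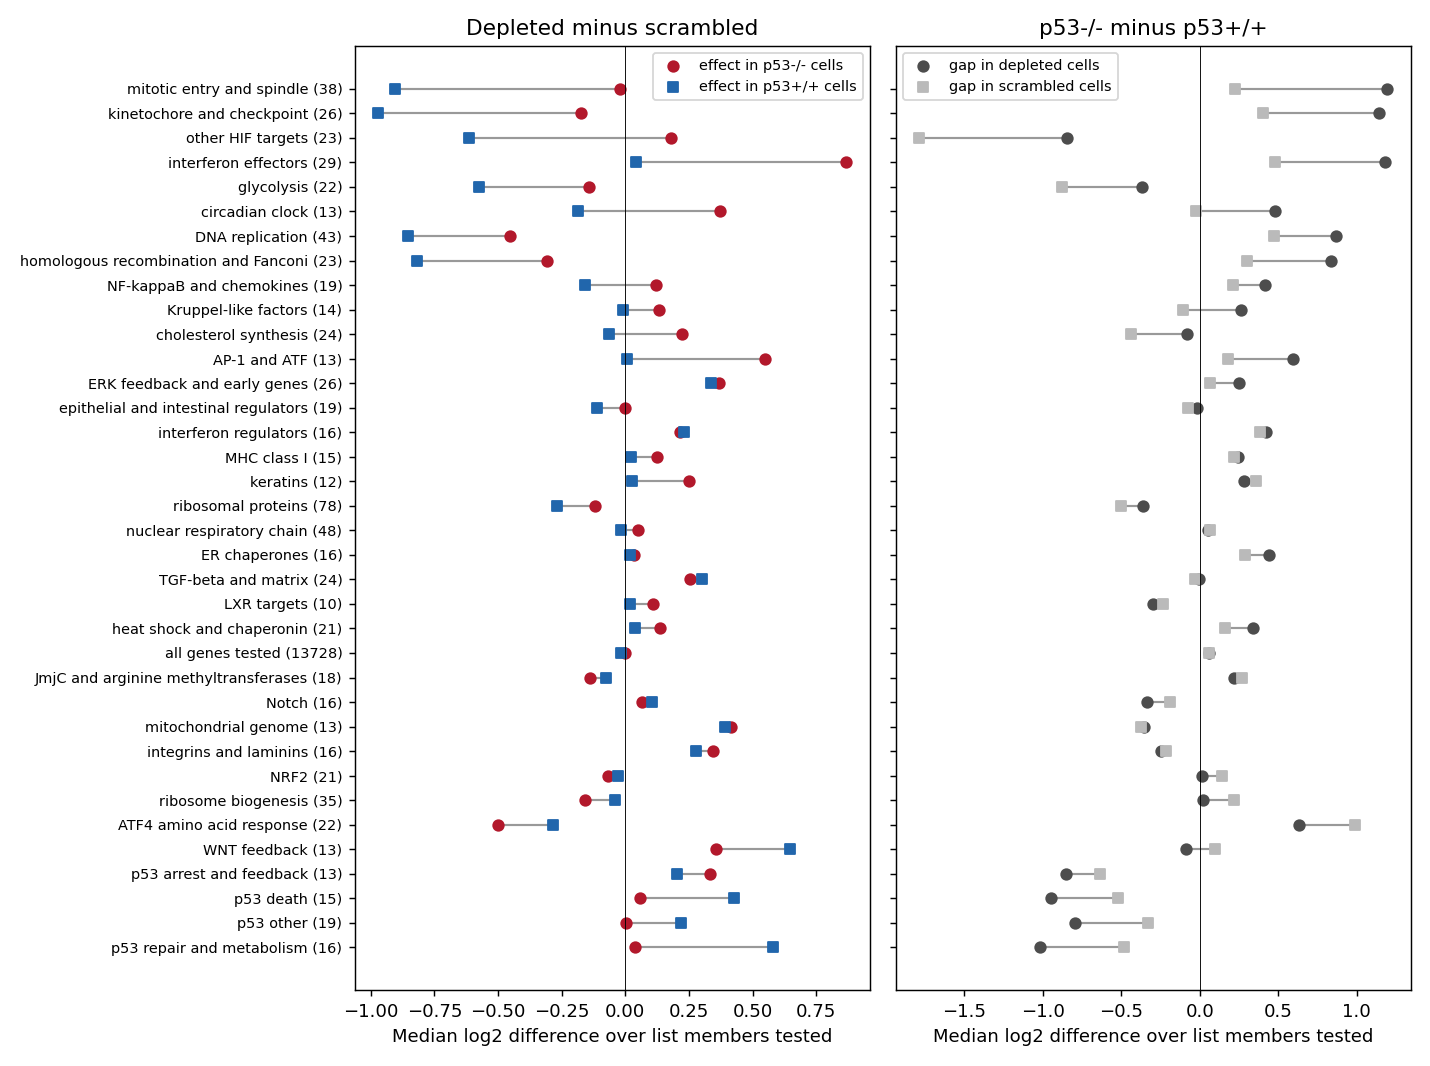
Median over the tested members of each gene list (number in brackets) of the depletion effect in each line (left) and of the gap between the lines in depleted and scrambled cells (right), in log2 units, ordered by the median difference. Mitosis genes parted the lines after depletion (1.19 against 0.23 for mitotic entry and spindle), while HIF targets outside glycolysis brought them closer (-0.85 against -1.79).

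Transcription factors of the immediate response to growth signals and stress tended towards positive differences. Of 13 tested AP-1 and ATF family genes 7 had a positive called difference (53.8%) and 1 a negative one (7.69%), against 16.7% and 16.2% of all genes tested. The negative one was JUN (-0.25), whose call was lost in 7 of the 12 fits that each left out 1 library (adjusted p up to 0.0805). FOSL2, an AP-1 subunit, was at 8.49, 8.66 and 8.11 FPKM in depleted p53-/- cells and 4.29, 4.34 and 4.50 in scrambled p53-/- cells, against 14.5, 14.0 and 14.9 in depleted p53+/+ cells and 25, 25 and 24.9 in scrambled p53+/+ cells (log2 difference 1.55, SE 0.0561, adjusted p = 1.78e-08). It rose in p53-/- cells and fell in p53+/+ cells. MAFF, a small MAF protein that dimerises with AP-1 and CNC factors, did the same (1.29), and JUNB differed by 0.79.

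Of 19 tested NF-κB targets and chemokines 11 had a positive difference (57.9%) and ICAM1 a negative one (5.26%), against 16.7% and 16.2% of all genes tested. The median was 0.35, and a group mean lay under 1 FPKM in 8. CXCL8, the neutrophil chemokine interleukin-8, was at 7.45, 8.42 and 6.76 FPKM in depleted p53-/- cells and 0.619, 0.538 and 0.705 in scrambled p53-/- cells, against 0.588, 0.561 and 0.555 in depleted p53+/+ cells and 0.113, 0.268 and 0.175 in scrambled p53+/+ cells. It had the largest positive difference of the genes whose highest group mean reached 5 FPKM (log2 difference 1.99, SE 0.117, adjusted p = 7.25e-07). CXCL8 reached 1 FPKM only in depleted p53-/- libraries, so it entered the test through the group in which it was high. BIRC3, an inhibitor of apoptosis that NF-κB induces, was at 2.46 FPKM in depleted and 0.566 in scrambled p53-/- cells, against 0.325 and 0.578 in depleted and scrambled p53+/+ cells (1.40). Its mean likewise reached 1 FPKM in depleted p53-/- cells alone, so the difference of either gene is only a description. BCL3, a nuclear partner of NF-κB, differed by 1.07. ICAM1, an adhesion molecule, did not exceed 0.117 FPKM in any p53-/- library, and its difference of -1.12 rests on the rise in p53+/+ cells to 12.1, 12.9 and 12.4 FPKM in depleted, against 4.96, 5.55 and 5.40 in scrambled cells.

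Feedback genes of the ERK pathway split. Of 26 tested, 10 had a positive (38.5%) and 3 a negative difference (11.5%), against 16.7% and 16.2% of all genes tested. DUSP6, a cytoplasmic ERK phosphatase, was at 40.3, 40.2 and 39.1 FPKM in depleted p53-/- cells and 64.7, 64.9 and 65.1 in scrambled p53-/- cells, against 56.1, 55.3 and 56.2 in depleted p53+/+ cells and 41.9, 43.7 and 40.7 in scrambled p53+/+ cells (log2 difference -1.09, SE 0.0446, adjusted p = 3.81e-08). It fell in p53-/- cells and rose in p53+/+ cells. SPRY4 (-0.27) and ETV5 (-0.30), which ERK signalling also induces, were the others with negative differences. DUSP5, a nuclear ERK phosphatase, rose in both lines and by more in p53-/- cells (0.60), as did the matricellular gene CCN1, which YAP and serum response factor also control (1.16). IER2 rose in p53-/- cells and fell in p53+/+ cells (0.61).

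Krüppel-like factors, zinc finger regulators of differentiation and growth, had a positive difference in 9 of 14 (64.3%) and a negative one in 2 (14.3%). The shares of all genes tested were 16.7% and 16.2%. KLF10, which TGF-β induces, was at 60.3, 60.6 and 58.4 FPKM in depleted p53-/- cells and 23.1, 23.1 and 22.8 in scrambled p53-/- cells, against 31.4, 31.5 and 33.5 in depleted p53+/+ cells and 31.0, 31.2 and 31.5 in scrambled p53+/+ cells (log2 difference 1.30, SE 0.0473, adjusted p = 1.78e-08). Its p53+/+ groups overlapped. KLF4, a factor of epithelial differentiation and quiescence that p53 is known to induce, fell in p53+/+ cells and did not change detectably in p53-/- cells, with 4.70, 4.91 and 4.20 FPKM in depleted and 4.78, 4.66 and 4.34 in scrambled p53-/- cells, against 11.4, 11.2 and 12.5 in depleted and 31.5, 31.6 and 31.3 in scrambled p53+/+ cells (difference 1.36). KLF2, a factor best known from endothelium and T cells, went the other way at 22.9, 18.9 and 20.6 FPKM in depleted p53-/- cells and 32.2, 39.3 and 26.5 in scrambled p53-/- cells, against 11.1, 13.3 and 16.8 in depleted p53+/+ cells and 8.4, 6.57 and 5.22 in scrambled p53+/+ cells (log2 difference -1.55, SE 0.246, adjusted p = 6.15e-04). Its SE was above the median of 0.0729 over the 150 genes named by rule, and the groups did not overlap in either line. KLF16 also had a negative difference (-0.23), lost in 8 of the 12 fits that each left out 1 library (adjusted p up to 0.0710).

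Of 19 genes that regulate or mark epithelial and intestinal identity 5 had a positive (26.3%) and 1 a negative difference (5.26%). Over all genes tested these shares were 16.7% and 16.2%. ELF3, an epithelial ETS factor, was at 15.1, 15.2 and 15.4 FPKM in depleted p53-/- cells and 13.7, 14.3 and 13.6 in scrambled p53-/- cells, against 20.6, 19.8 and 20.2 in depleted p53+/+ cells and 55.4, 54.8 and 51.1 in scrambled p53+/+ cells (log2 difference 1.5, SE 0.0538, adjusted p = 1.78e-08). CDX2, the master factor of intestinal identity, was at 10.3, 9.53 and 11.4 FPKM in depleted and 5.65, 5.68 and 6.05 in scrambled p53-/- cells, and its p53+/+ groups overlapped at 4.37 to 5.25 FPKM (difference 0.77). Every p53-/- library lists LY6D at 0, so that its difference of 1.51 is its fall in p53+/+ cells. The splicing regulator ESRP1 had a difference of 0.19, lost with mitochondrial genes left out (adjusted p = 0.0805), and SNAI1, a repressor of epithelial genes, had the negative one (-0.29, lost in 5 of 12 fits without 1 library, adjusted p up to 0.0573). Of 12 genes tested from a list of keratins and vimentin 4 had a positive (33.3%) and 2 a negative difference (16.7%). KRT7 was at 1.65 FPKM in depleted and 1.38 in scrambled p53-/- cells, against 1.80 and 6.75 in depleted and scrambled p53+/+ cells, a difference of 1.64, and KRT80 differed by 1.05.

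Genes of the circadian clock and its output had positive differences in 8 of 13 (61.5%) and negative ones in 0 (median 0.45). The shares of all genes tested were 16.7% and 16.2%. BHLHE40, a repressor of the clock that HIF also induces, was at 12.5, 12.6 and 12.6 FPKM in depleted p53-/- cells and 5.31, 5.21 and 5.21 in scrambled p53-/- cells, against 12.7, 13.9 and 14.2 in depleted p53+/+ cells and 20.003, 21.3 and 20.5 in scrambled p53+/+ cells (log2 difference 1.69, SE 0.0623, adjusted p = 1.78e-08). The p53-/- libraries rose and the p53+/+ libraries fell, until depleted cells of both lines lay within 12.5 to 14.2 FPKM. NFIL3, which represses clock-driven genes, changed in the same opposite ways (0.81). The core genes ARNTL, CRY1 and CRY2 had differences between 0.08 and 0.17, none of them called. The time of harvest after the last medium change is not given, and its part was not tested.

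Genes of cholesterol synthesis, which SREBP2 switches on when sterols run low, had a positive difference in 14 of 24 (58.3%) and a negative one in 1 (4.17%). Their median was 0.32, and the shares of all genes tested were 16.7% and 16.2%. Depletion raised 16 and lowered 3 in p53-/- cells, and raised 6 and lowered 9 in p53+/+ cells. INSIG1, the sterol-sensing retainer of SREBP and itself its target, was at 25, 23.3 and 21.7 FPKM in depleted p53-/- cells and 8.27, 8.87 and 8.75 in scrambled p53-/- cells, against 12.6, 12.2 and 14.0 in depleted p53+/+ cells and 13.3, 14.9 and 14.3 in scrambled p53+/+ cells (log2 difference 1.46, SE 0.0899, adjusted p = 9.20e-07). The pathway enzymes IDI1 and CYP51A1 rose in p53-/- cells and fell in p53+/+ cells, with differences of 0.76 and 0.65. TM7SF2, a sterol reductase whose step LBR can also carry out, was the member with a negative difference (-0.69). SCD, the fatty acid desaturase, rose in p53-/- cells and fell in p53+/+ cells (0.65). Of 10 LXR targets, which respond to high sterols, 2 had a positive (20%) and 3 a negative difference (30%). Over all genes tested these shares were 16.7% and 16.2%. The lipoprotein gene APOE had the most negative difference of the list (-1.48).

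Amino acid genes under ATF4, the factor of the integrated stress response, had 8 negative (36.4%) and 5 positive differences (22.7%) among 22 (median -0.16). Over all genes tested these shares were 16.2% and 16.7%. PSAT1, of serine synthesis, was at 49.7, 47.8 and 45.3 FPKM in depleted p53-/- cells and 80.1, 81.8 and 86.6 in scrambled p53-/- cells, against 31.4, 29.6 and 29.2 in depleted p53+/+ cells and 26.7, 26.4 and 30.1 in scrambled p53+/+ cells (log2 difference -0.90, SE 0.0775, adjusted p = 8.10e-06). The transporter genes SLC7A5 and SLC1A5 had differences of -0.61 and -0.86, the first falling in both lines and the second rising in both. DDIT3, the death-linked factor CHOP, had a positive difference (0.56) and rose in both lines. ATF4 RNA itself was not called (-0.34, adjusted p = 0.0954), and passed without replicate 3 of depleted p53-/- cells (adjusted p = 0.0205) and with mitochondrial genes left out.

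Targets of NRF2, the antioxidant factor, had 7 negative (33.3%) and 2 positive differences (9.52%) among 21. Over all genes tested these shares were 16.2% and 16.7%. NQO1, a quinone reductase, was at 133, 138 and 139 FPKM in depleted p53-/- cells and 162, 166 and 162 in scrambled p53-/- cells, against 165, 156 and 155 in depleted p53+/+ cells and 105, 101 and 105 in scrambled p53+/+ cells. It fell in p53-/- cells and rose in p53+/+ cells (log2 difference -0.86, SE 0.0465, adjusted p = 4.53e-07). SRXN1, which restores peroxiredoxins, fell in both lines and further in p53-/- cells (-0.89), while the thioredoxin reductase gene TXNRD1 had a positive difference (0.44).

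**Figure D4:**
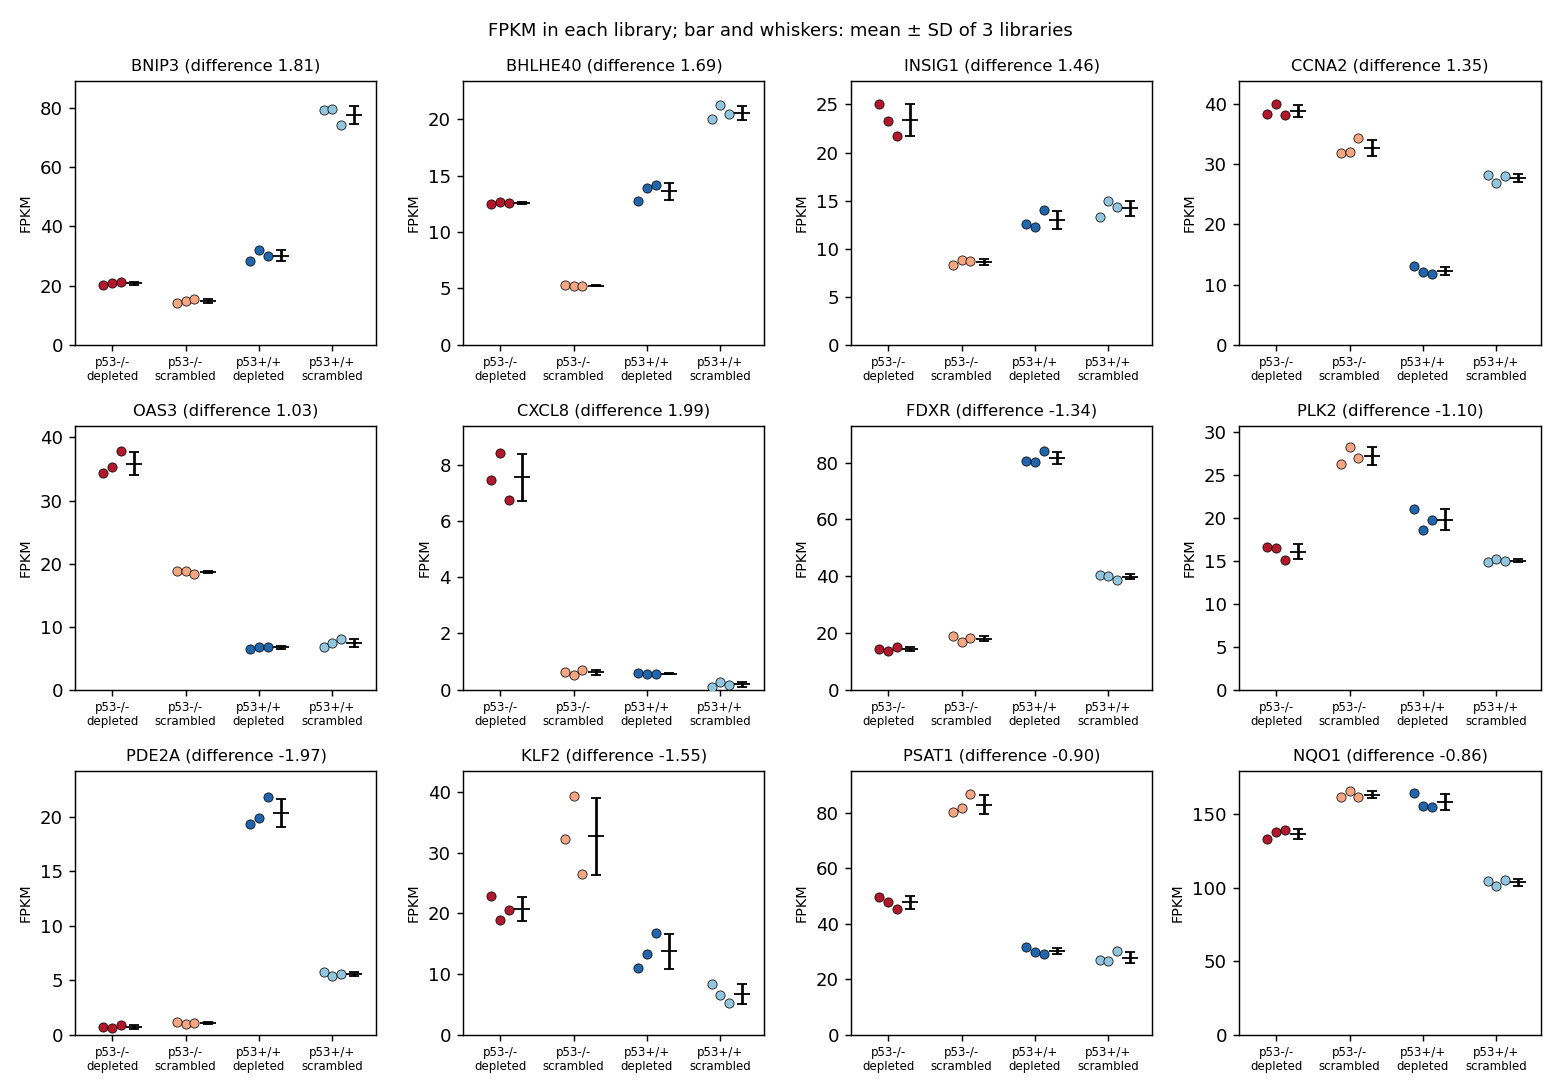
FPKM of 12 genes in each of the 12 libraries, by group, with the mean ± SD of 3 libraries beside each group and the log2 difference in the panel title. BNIP3 and BHLHE40 rose in p53-/- cells and fell in p53+/+ cells, PLK2, KLF2, NQO1 and FDXR did the reverse, and CXCL8, INSIG1 and OAS3 were high in depleted p53-/- libraries.

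Feedback genes of WNT signalling, which HCT116 activates through a mutant β-catenin, had negative differences in 9 of 13 (69.2%) and positive ones in 0 (median -0.24). The shares of all genes tested were 16.2% and 16.7%. Depletion raised 8 and lowered 4 in p53-/- cells, and raised 9 and lowered 3 in p53+/+ cells. Without replicate 2 of depleted p53+/+ cells 5 genes were called, and without 1 of the other libraries 6 to 8. NKD2, an antagonist of Dishevelled, was at 4.37, 4.04 and 4.53 FPKM in depleted p53-/- cells and 5.50, 4.57 and 4.91 in scrambled p53-/- cells, against 19.6, 22.3 and 22.1 in depleted p53+/+ cells and 13.8, 12.6 and 12 in scrambled p53+/+ cells (log2 difference -0.87, SE 0.104, adjusted p = 8.69e-05). BMP4, a secreted growth factor, differed by -0.38, and AXIN2, a standard readout of the pathway, by 0.0057 without a call.

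Of 16 Notch genes 6 had a negative (37.5%) and 4 a positive difference (25%), against 16.2% and 16.7% of all genes tested. The positive count was 2 in 7 of the 12 fits that each left out 1 library. The ligand JAG1 was at 11.5, 11.6 and 12 FPKM in depleted p53-/- cells and 12, 11.4 and 11.4 in scrambled p53-/- cells, against 18.7, 18.4 and 18.9 in depleted p53+/+ cells and 10.1, 9.91 and 10.9 in scrambled p53+/+ cells (log2 difference -0.79, SE 0.0593, adjusted p = 3.17e-06). It rose in p53+/+ cells, while the p53-/- groups overlapped. The receptor NOTCH1 followed the same pattern (-0.41). The receptor modifier RFNG fell in p53-/- cells and rose in p53+/+ cells (-0.70), and HES2, of the HES repressor family, rose in both lines and by less in p53-/- cells (-0.49).

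Genes of TGF-β response and matrix gave 6 positive (25%) and 7 negative (29.2%) differences among 24, against 16.7% and 16.2% of all genes tested. The protease inhibitor gene TIMP1 was at 107, 104 and 116 FPKM in depleted p53-/- cells and 87.1, 85.1 and 80.2 in scrambled p53-/- cells, against 163, 176 and 184 in depleted p53+/+ cells and 70.9, 79.3 and 74.1 in scrambled p53+/+ cells. It rose in both lines and by less in p53-/- cells (-0.84). Integrin and laminin genes gave 3 positive (18.8%) and 4 negative (25%) differences among 16, counts close to those shares of all genes, of which LAMB3 (0.41) and LAMA5 (-0.34) were the largest in each direction. Without replicate 2 of depleted p53+/+ cells 2 integrin and laminin genes had a negative difference.

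Mina53 works in the setting of ribosome biogenesis. Of 35 biogenesis genes 15 had a negative difference (42.9%) and 2 a positive one (5.71%), against 16.2% and 16.7% of all genes tested. The median of the list was -0.15. The positive ones were FBL (0.19) and NPM1 (0.43), and FBL lost its call in 8 of 12 fits without 1 library (adjusted p up to 0.0833). Depletion lowered 20 and raised 3 of the 35 in p53-/- cells, and lowered 12 and raised 8 in p53+/+ cells. POLR1A, the catalytic subunit of RNA polymerase I, was at 6.38, 6.66 and 6.46 FPKM in depleted p53-/- cells and 12.4, 12.3 and 12.6 in scrambled p53-/- cells, against 7.61, 7.40 and 7.43 in depleted p53+/+ cells and 10.2, 9.54 and 9.996 in scrambled p53+/+ cells (log2 difference -0.48, SE 0.0560, adjusted p = 7.57e-05). It fell in both lines and further in p53-/- cells. POLR1B, the second large subunit, fell in p53-/- cells and rose in p53+/+ cells (-0.47), as did RRS1, of large subunit assembly (-0.52). BYSL, of small subunit assembly, fell by 0.40 in p53-/- cells and had an effect of -0.0076 in p53+/+ cells (adjusted p = 0.868), a difference of -0.40.

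Of 78 ribosomal protein genes 37 had a positive difference (47.4%) and 1, RPS12 (-0.32), a negative one (1.28%), with a median of 0.13. The shares of all genes tested were 16.7% and 16.2%. With mitochondrial genes left out the counts were 32 and 3 and the median 0.07. Depletion lowered 47 in p53-/- cells and 67 in p53+/+ cells. RPL13A was at 631, 615 and 640.4 FPKM in depleted p53-/- cells and 1018, 941 and 918 in scrambled p53-/- cells, against 642, 666 and 671 in depleted p53+/+ cells and 1650.1, 1654 and 1608 in scrambled p53+/+ cells (log2 difference 0.70, SE 0.0535, adjusted p = 3.42e-06). RPL12, RPL21 and RPSA had differences of 0.37, 0.34 and 0.31. Ribosomal protein genes have many processed pseudogenes that may share reads, so single members are uncertain.

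Most of the remaining large differences belong to no list. Among genes with at least 5 FPKM in the highest group, the negative end was led by SERF2-C15ORF63, PDE2A, SUSD2 and KLF2. SERF2-C15ORF63 is a read-through transcript that shares exons with its neighbours, so its difference of -2.24 is uncertain. PDE2A, a phosphodiesterase that degrades cyclic nucleotides, was at 0.708, 0.564 and 0.880 FPKM in depleted p53-/- cells and 1.15, 0.954 and 1.11 in scrambled p53-/- cells, against 19.4, 19.9 and 21.8 in depleted p53+/+ cells and 5.78, 5.37 and 5.60 in scrambled p53+/+ cells (log2 difference -1.97, SE 0.104, adjusted p = 3.82e-07). SUSD2, a membrane protein, rose in both lines but from little in p53-/- cells, where it reached 1.26, 0.910 and 1.17 FPKM in depleted, against 0.530, 0.418 and 0.410 in scrambled cells, while p53+/+ cells held 9.07, 9.51 and 9.41 in depleted and 1.21, 1.19 and 1.03 in scrambled libraries (-1.73). SESN3, a sestrin under FOXO control, was at or under 0.193 FPKM in p53-/- libraries and differed by -1.51.

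RHOB, a small GTPase that stress induces, rose in both lines, and was at 359, 331 and 342 FPKM in depleted p53-/- cells and 187, 195 and 173 in scrambled p53-/- cells, against 196, 204 and 223 in depleted p53+/+ cells and 47.7, 43.1 and 42.8 in scrambled p53+/+ cells (log2 difference -1.30, SE 0.0851, adjusted p = 1.22e-06). On the linear scale the steps in both lines were close in size, and the scrambled level was higher in p53-/- cells. ALDH1L1, a folate enzyme, fell in p53-/- cells to 4.32, 4.33 and 4.74 FPKM in depleted, against 13.7, 12.2 and 12.2 in scrambled cells. It was at or under 0.0252 FPKM in every p53+/+ library, where a fall could not have been seen (difference -1.33). ATOX1, a copper chaperone, rose in p53+/+ cells without a call in p53-/- cells (-1.12). CHPF, which polymerises chondroitin, fell in p53-/- cells and rose in p53+/+ cells (-1.15). VPS9D1-AS1 (-1.27) is an antisense gene and the microRNA gene MIR6850 (-1.30) lies within other transcripts, so their reads may not be separable from those of overlapping genes. RNA45SN2, a precursor of ribosomal RNA, had a difference of -1.37 that did not pass when unfiltered genes were tested too (adjusted p = 0.133), nor in 8 of 12 fits without 1 library (adjusted p up to 0.0744). Its replicates spread widely, at 20.3, 28.3 and 46.7 FPKM in scrambled p53-/- cells and 12.8, 4.48 and 10.4 in scrambled p53+/+ cells.

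At the positive end, ARRDC3, an arrestin-related adaptor, was at 11.8, 12.7 and 11 FPKM in depleted p53-/- cells and 6.68, 6.43 and 7.12 in scrambled p53-/- cells, against 4.50, 5.03 and 4.25 in depleted p53+/+ cells and 9.52, 11 and 8.92 in scrambled p53+/+ cells (log2 difference 1.68, SE 0.111, adjusted p = 1.27e-06). It rose in p53-/- cells and fell in p53+/+ cells. The noncoding RNA genes LOC105377604 (1.77) and MIR210HG (1.54), the second a host of a hypoxia-induced microRNA, lay under 1 FPKM in every p53-/- library, so their differences are essentially their falls in p53+/+ cells. B3GNT5, a glycosyltransferase of lacto-series glycolipids, rose in p53-/- cells and fell in p53+/+ cells, with 8.45, 8.45 and 6.89 FPKM in depleted and 4.57, 5.44 and 5.45 in scrambled p53-/- cells, against 7.99, 7.07 and 6.53 in depleted and 10.1, 10.9 and 10.4 in scrambled p53+/+ cells (1.02).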

How the data were processed

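RNA was sequenced in 12 libraries of HCT116 cells, made from total RNA with Illumina protocols per the labels, which do not say whether poly(A) RNA was selected. Groups and replicate numbers come from the sample titles, and table columns named KO were read as the p53-/- line. Replicates correlated at 0.9925 to 0.995 and none was a copy of another. The deposited table holds 36615 gene symbols and no unit in its header. Its deposited values were taken to be FPKM, since they are fractional and sum to different totals in each library. Per the submitters' processing notes the genome build was hg19, and the sources used here name no aligner or quantification tool. Depth in reads is unknown, as low values do not step in whole reads, and no counting interval is given.

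Genes at 1 FPKM or more in at least 3 libraries (13728) were tested on log2(FPKM + 1) in R 4.3.3 by limma 3.58.1 using a variance trend, 1 mean per group and 8 residual degrees of freedom. This scale understates changes of low genes. P-values are two-sided, were adjusted by the Benjamini-Hochberg method over the 13728 genes, and had a threshold of 0.05. The script was checked on simulated data.

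The comparison, the gene lists (923 entries, 12 distinct ones without a match) and the rule for naming genes were chosen with earlier results of these data known. Named are RIOX2 and 6 p53 targets, the 10 largest called differences in each direction with 5 FPKM or more in the highest group or in every group, 6 genes per direction called opposite ways in the lines, and the 4 list members with the smallest p (2 for lists under 15 genes). Members that go against their list, some that were not called and some whose call was lost in other fits were named after their values were seen. Some genes that the rule picks are not reported here. No set test was run, and lists are described by counts and medians. List counts are to be read beside the shares over all genes tested, 16.7% positive and 16.2% negative. Alternatives were another pseudocount, other filters, TMM-type scaling, leaving out mitochondrial genes, a replicate block and leaving out each library. Promoter sequences are from RefSeq (GRCh38.p14). The files hold no coordinates.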

Additional observations from a re-analysis of the deposited data

Results flagged for a closer look

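In 12 named genes depletion had opposite effects in the lines, each past the threshold. They are the 6 in each direction whose weaker effect was largest, among genes with a mean of 5 FPKM or more in every group. They were chosen for this pattern, so their values are a description.

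In 6 genes depletion raised the level in p53-/- cells and lowered it in p53+/+ cells. The differences were 1.81 for BNIP3, 1.69 for BHLHE40, 1.37 for the uncharacterised LOC101927789, 1.02 for B3GNT5, 0.97 for KDM3A and 0.84 for C4orf3. C4orf3, which encodes a small membrane peptide, was at 12.4, 12.5 and 12.5 FPKM in depleted p53-/- cells and 8.53, 9.05 and 10.4 in scrambled p53-/- cells, against 15.4, 15.5 and 13.3 in depleted p53+/+ cells and 20.6, 22.2 and 19.1 in scrambled p53+/+ cells. BNIP3, BHLHE40 and KDM3A are on the list of HIF targets. All 6 were lower in scrambled p53-/- than in scrambled p53+/+ cells, with gaps of -2.32 for BNIP3 to -0.90 for B3GNT5. The choice of these genes favours this sign, since both depletion effects are measured from the same scrambled means.

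In the other 6 depletion lowered the level in p53-/- cells and raised it in p53+/+ cells. The differences were -1.55 for KLF2, -1.30 for MIR6850, -1.15 for CHPF, -1.10 for PLK2, -1.09 for DUSP6 and -0.85 for TMEM104. TMEM104, which encodes a membrane protein, was at 7.47, 7.19 and 8.26 FPKM in depleted p53-/- cells and 11.3, 10.7 and 10.3 in scrambled p53-/- cells, against 7.32, 7.49 and 7.06 in depleted p53+/+ cells and 5.28, 5.20 and 5.32 in scrambled p53+/+ cells. All 6 were higher in scrambled p53-/- than in scrambled p53+/+ cells, with gaps of 0.61 for DUSP6 to 2.13 for KLF2, a sign that the choice of genes again favours. Of these genes PLK2 is a known p53 target.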

How the results depend on the processing

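The 4511 called genes became 2896 (1433 positive, 1463 negative) when only the 6840 genes with a mean of 5 FPKM or more in each group were tested. Fewer genes were tested there, and all 2741 such genes among the 4511 kept their call. The other settings gave 4357 (pseudocount 0.1), 3700 (no filter), 4557 (TMM-type scaling) and 4565 (mitochondrial genes left out). Leaving out 1 library gave 3824 to 4444, with 1917 to 2330 positive and 1839 to 2149 negative, and between 3719 and 4084 of the 4511 kept call and direction. Among the 4511, 5 genes changed sign with the pseudocount of 0.1 and 0 under the other settings on the log2 scale. A replicate block gave 4139 called, 2085 positive and 2054 negative. Deviations of same-numbered libraries from their group means correlated at -0.227 to 0.156 over 18 pairs, against -0.136 to 0.253 over 36 pairs of different numbers. By this measure same-numbered libraries were no more alike than others, but it cannot show whether samples were prepared in pairs.

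Of the named genes reported here that the rule picked, RNA45SN2 and ESRP1 lost their call under an alternative, as given above. No list count of 10 or more moved by over 1.5 times when 1 library was left out. Smaller counts did, by 1 gene except for those of the WNT, Notch, integrin, JmjC and mitochondrial genome lists. The last went to 5 negative differences in place of 3 without replicate 1 of scrambled p53-/- cells. List counts fell further when members with a group mean under 5 FPKM were left out. Positive counts became 7 in place of 26 for interferon effectors and 3 in place of 17 for recombination and Fanconi genes. They became 4 in place of 11 for NF-κB genes and 5 in place of 10 for ERK feedback genes. Negative p53 targets became 26 in place of 41, and positive genes of mitotic entry and the spindle 31 in place of 38. With 3 libraries per group precision is limited, and the scale compresses changes of genes near or under 1 FPKM.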

Other observations

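Of 16 chaperone genes of the endoplasmic reticulum 5 had a positive (31.2%) and 3 a negative difference (18.8%), against 16.7% and 16.2% of all genes tested. HYOU1, a chaperone of the HSP70 superfamily in the endoplasmic reticulum, fell in both lines and was at 16, 15.8 and 16.2 FPKM in depleted p53-/- cells and 45.4, 44.7 and 43.8 in scrambled p53-/- cells, against 22.3, 22.5 and 21.8 in depleted p53+/+ cells and 46.5, 45.4 and 46.9 in scrambled p53+/+ cells (log2 difference -0.40, SE 0.0438, adjusted p = 4.72e-05). DNAJB9, a cochaperone that the unfolded protein response induces, rose in both (0.66), and PDIA4 and HSP90B1 differed by -0.29 and 0.32. Of 21 genes of the heat shock response and the cytosolic chaperonin 7 had a positive (33.3%) and 6 a negative difference (28.6%). With mitochondrial genes left out the counts were 4 and 8. The small heat shock protein gene HSPB8 rose more in p53-/- cells (0.72), and the mitochondrial chaperonin gene HSPD1 fell further there (-0.45). TCP1, a chaperonin subunit, fell in p53+/+ cells without a call in p53-/- cells (0.27). HSPA8, the constitutive HSP70, fell in p53-/- cells and rose in p53+/+ cells (-0.38).

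Genes of the respiratory chain were called at shares near those of all genes. Of 48 nuclear genes 6 had a positive (12.5%) and 7 a negative difference (14.6%), and of 13 genes of the mitochondrial genome 2 (15.4%) and 3 (23.1%). With mitochondrial genes left out the nuclear counts were 3 and 11. ATP5MC2, a subunit of the ATP synthase ring, fell in both lines and further in p53-/- cells (-0.56), while its paralog ATP5MC1 rose in both and by less there (-0.38). SDHD and UQCRB differed by 0.43 and 0.31, ND1 and ND2 by -0.34 and -0.45. At the start of the mitochondrial genome's ribosomal unit, the tRNA gene TRNF was at 91.2, 103 and 106 FPKM in depleted p53-/- cells and 291, 321 and 290.2 in scrambled p53-/- cells, against 88.3, 69.9 and 71.9 in depleted p53+/+ cells and 75.1, 76.9 and 85.1 in scrambled p53+/+ cells (log2 difference -1.54, SE 0.122, adjusted p = 4.51e-06). The tRNA gene TRNV had a difference of -1.28. RNR1, which lies between them and encodes the small ribosomal RNA, differed by -0.67 (adjusted p = 2.60e-05), and RNR2, the large ribosomal RNA after TRNV, by -0.11 (adjusted p = 0.407). Whether the libraries were selected for poly(A) RNA is not given, and the part of library preparation in these values was not tested.

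A list of 18 genes held JmjC oxygenases, the family of Mina53, and arginine methyltransferases. Of these 7 had a negative difference (38.9%) and 0 a positive one, against 16.2% and 16.7% of all genes tested. The depleted target RIOX2 is itself among the 7. Without replicate 2 of scrambled p53-/- cells or replicate 2 of scrambled p53+/+ cells 4 were called. JMJD4 was at 4.92 FPKM in depleted and 7.36 in scrambled p53-/- cells, against 3.22 and 3.23 in depleted and scrambled p53+/+ cells (-0.49), and JMJD8 and PRMT5 differed by -0.23 and -0.18. Of 6 alpha-arrestin and glucose-sensing genes 2 had a positive and 2 a negative difference (33.3% each), against 16.7% and 16.2% of all genes tested. The sensor gene MLXIP differed by -0.24. TUBB3, which carried nearly all of the summed level of the neuronal markers, had a negative difference of -0.52.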
